A study of Mus musculus with 12 samples.

Results

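The genes described here drive or restrain passage through G1, the phase in which a T cell commits to dividing. They are the D-type cyclin genes Ccnd2 and Ccnd3, the cyclin-dependent kinase (CDK) genes Cdk4, Cdk6 and Cdk2, the CDK inhibitor genes Cdkn1b and Cdkn2c, the pocket protein genes Rb1 and Rbl2, and Myc. They were chosen by name for these roles, with earlier results of these data known, and make up 10 of the 46603 genes counted. All 10 of 10 passed the filter on low counts, which left 13167 genes for testing.

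RNA was sequenced from mouse CD8 T cells (OT-I/Cas9), which share 1 transgenic T cell receptor and express the nuclease Cas9. The 6 groups held 2 libraries each. Control cells carried the guide labelled Ctrl2 and Tmed10 knockout (KO) cells carried guides against Tmed10, whose product is a cargo receptor of the early secretory pathway. Control cells were given H2O as vehicle or 100 µM AGN192403, an imidazoline receptor ligand used in the study to lower TMED proteins, while KO cells were given vehicle. Vehicle or compound was given for 24 h in resting and restimulated cells alike. Each of these 3 kinds of cells was sampled at rest and after 24 h on plates coated with 2.5 µg/mL antibody to CD3. Every culture held IL-2, IL-7, IL-15 and puromycin, and the cells had been activated earlier through CD3 and CD28 so that the guides could be delivered. Resting therefore means not restimulated, in cells that had been expanded in cytokines. The knockout is a pool of edited cells rather than a clone, and transcripts of edited alleles can still be counted.

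In outline, D-type cyclins bind CDK4 and CDK6, and cyclins E and A bind CDK2. The resulting kinases phosphorylate the pocket proteins RB (from Rb1) and p130 (from Rbl2), which then release E2F transcription factors and allow genes of DNA replication to be transcribed. p18 (from Cdkn2c) blocks CDK4 and CDK6, and p27 (from Cdkn1b) blocks CDK2 complexes. In T cells, antigen receptor and cytokine signals raise MYC and D-type cyclins and lower p27, and FOXO factors, which keep resting lymphocytes quiescent, are known to act on Cdkn1b and Rbl2.

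The promoters of 4 members are shown, that of Cdk4 because of the motif that recurs in it, those of Cdk2 and Rbl2 because each holds 1 match to a motif of the E2F and pocket protein pathway, and that of Cdkn1b because its level had the widest range over the groups (4.60-fold). Promoter windows of 300 bases, from 250 before to 50 after the transcription start, were taken from RefSeq on GRCm38.p6 and were held for 7 of the 10 members. Capitals mark matches, on either strand, to the motifs searched: the E-box CACGTG bound by MYC and its partners, the E2F cores TTTGGCGC, TTTCCCGC, TTTCGCGC and TTTGCCGC, the cell cycle homology region (CHR) element TTTGAA bound by DREAM and MuvB complexes, and the FOXO core GTAAACA. Each is printed 5′ to 3′ on the strand of the gene.
Cdk4 (chr10:127063285-127063584, plus strand): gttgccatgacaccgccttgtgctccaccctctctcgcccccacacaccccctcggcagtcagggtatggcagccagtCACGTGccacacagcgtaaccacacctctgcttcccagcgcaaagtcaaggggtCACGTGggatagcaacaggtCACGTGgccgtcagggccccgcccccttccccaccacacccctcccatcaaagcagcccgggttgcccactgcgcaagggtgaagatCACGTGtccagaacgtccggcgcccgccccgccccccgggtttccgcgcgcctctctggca
Cdk2 (chr10:128705002-128705301, minus strand): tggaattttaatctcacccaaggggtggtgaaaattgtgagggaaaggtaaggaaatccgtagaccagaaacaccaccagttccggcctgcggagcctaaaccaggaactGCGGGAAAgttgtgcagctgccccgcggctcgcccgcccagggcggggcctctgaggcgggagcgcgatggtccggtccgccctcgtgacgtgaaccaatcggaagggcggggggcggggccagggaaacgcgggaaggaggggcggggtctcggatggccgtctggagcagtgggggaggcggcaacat
Cdkn1b (chr6:134920151-134920450, plus strand): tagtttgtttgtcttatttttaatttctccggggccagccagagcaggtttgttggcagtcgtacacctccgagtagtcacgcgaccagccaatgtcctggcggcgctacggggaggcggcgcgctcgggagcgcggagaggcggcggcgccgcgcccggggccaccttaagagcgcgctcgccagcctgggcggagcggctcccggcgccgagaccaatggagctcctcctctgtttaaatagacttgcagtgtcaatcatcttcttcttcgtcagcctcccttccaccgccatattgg
Rbl2 (chr8:91069807-91070106, plus strand): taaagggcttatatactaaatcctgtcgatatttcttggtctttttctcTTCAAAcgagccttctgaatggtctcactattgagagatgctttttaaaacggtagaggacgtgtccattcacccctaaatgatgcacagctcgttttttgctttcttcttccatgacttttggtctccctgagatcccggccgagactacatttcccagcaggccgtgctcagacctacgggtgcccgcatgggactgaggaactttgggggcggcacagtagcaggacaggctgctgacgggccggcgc

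The Cdk4 window held 4 E-boxes, at 172, 118, 98 and 11 bases before the transcription start. An E-box occurred in 7.15% of all 32851 promoter windows, and 4 or more occurred in 8 of them, or 0.0244%. The Cdk2 window held an E2F core, read on the opposite strand 140 bases before the start, and any of the 4 cores was found in 2.26% of windows. The single capital run in the Rbl2 window is a CHR element 201 bases before the start, a match found in 17.9% of windows. No searched motif was found in the Cdkn1b window. Outside these 4 windows, Cdk6 and 1 of the 2 Cdkn2c windows held 1 E-box each, and 1 of the 2 Ccnd3 windows held a FOXO core, which occurred in 3.65% of windows. These matches describe the letters only.

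Total counts ran from 9089350 to 16481840 per library. Levels are given in CPM, a gene's count scaled to a common library total after TMM normalisation. CPM is a share of the counted RNA, so in these bulk samples fewer cells with a transcript and less of it per cell cannot be told apart. The labels do not say whether the 2 libraries of a group came from separate cultures or mice, so p-values measure the spread between these libraries, which may be technical. Statements that libraries did not overlap describe 2 libraries a group and are not tests. Such separation can arise without a difference between groups, and its share over all genes is not given. Tmed10 was at 63.3 ± 2.49 CPM in resting KO cells against 117 ± 0.357 in resting controls (SD, n = 2), and at 57.1 ± 1.72 against 127 ± 2.02 CPM after activation. All 10 CD8 T cell markers were detected, with a summed level of 12120 CPM or more in every library. Most of that sum came from Gzmb, an effector gene, at 9630 CPM in resting and 20000 CPM in activated controls. In the same groups Cd8a was at 633 and 682 CPM, Cd3e at 583 and 248, Cd3d at 436 and 242 and Cd3g at 561 and 221 CPM. The summed lists of other lineages were lower, at no more than 0.400 CPM for 5 erythroid, 1.32 for 4 NK cell, 8.19 for 6 B cell, 20.4 for 9 myeloid, 74.8 for 4 CD4 T cell and 98.1 for 5 stromal markers. Most of the myeloid, CD4 and stromal sums came from Cd68, Zbtb7b and Pecam1, while Cd4 was at no more than 1.17 CPM in any group. Zbtb7b was at 34.2 CPM in activated controls, 46.8 in activated KO and 65.1 in activated AGN192403 cells, and in controls the stromal sum was 97.9 CPM at rest and 29.2 CPM after activation. The part of such cells in the results was not tested.

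**Figure D1:**
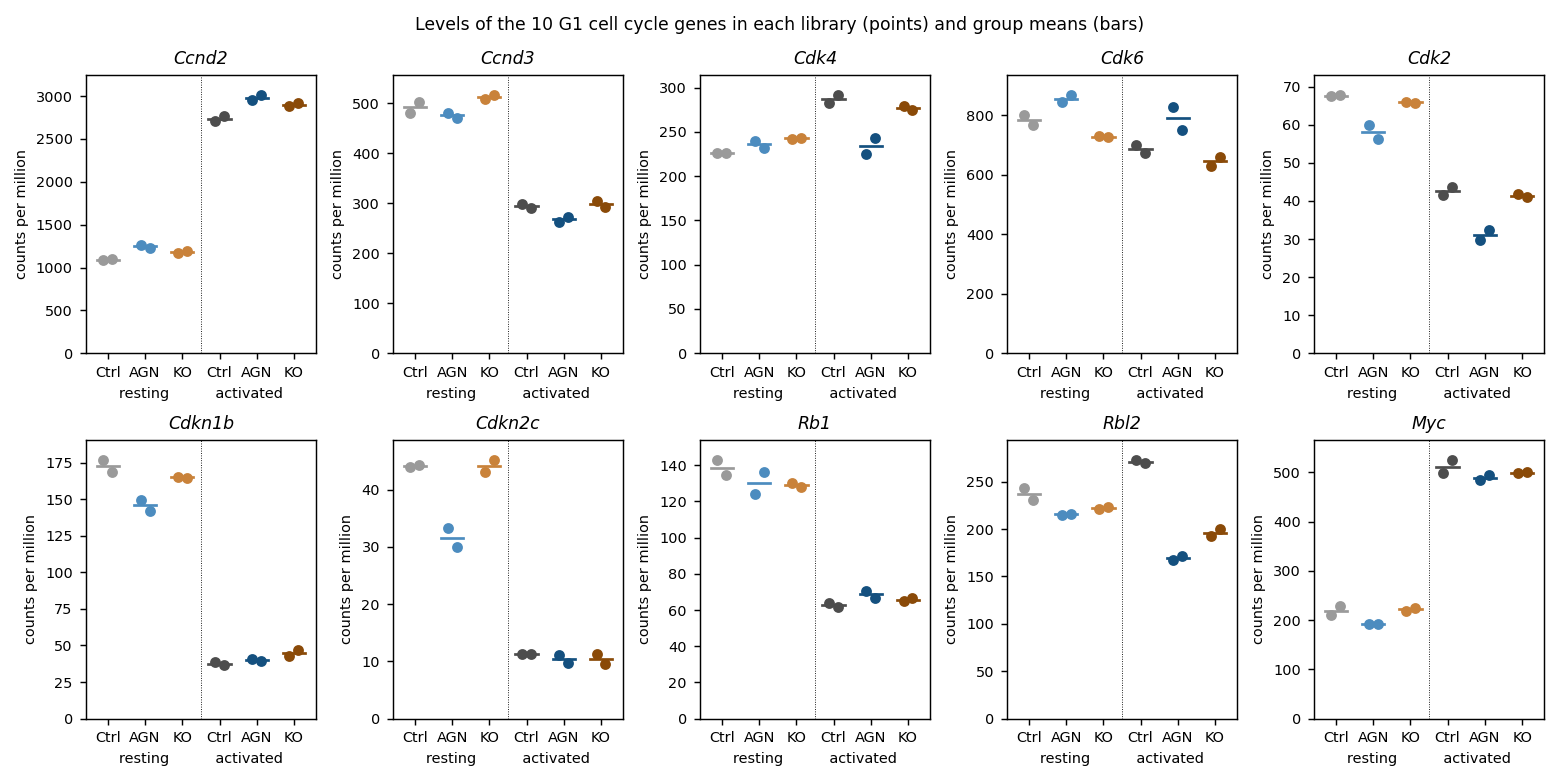
Each panel plots 1 gene, with CPM from 0 on the vertical axis and the 6 groups on the horizontal axis. Points are libraries (2 per group) and bars are group means. Ccnd2 and Myc stood higher in all 6 activated libraries than in any resting one, Cdkn1b, Cdkn2c and Rb1 stood lower, and Rbl2 was highest in activated controls.

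Activation of control cells addresses what restimulation did to these genes without a perturbation. Of the members, 4 were called higher (Ccnd2, Cdk4, Rbl2 and Myc) and 6 lower (Ccnd3, Cdk6, Cdk2, Cdkn1b, Cdkn2c and Rb1), where a call is a Benjamini-Hochberg adjusted p under 0.05 in edgeR's quasi-likelihood test over all 13167 genes. Among all genes 36.4% were called higher and 37.4% lower, so that being called was the common outcome. The members' median absolute log2 fold change was 0.94, beside 0.57 over all genes tested.

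Ccnd2, a D-type cyclin gene of lymphocytes (ENSMUSG00000000184, chromosome 6, 127125162 to 127152193 on GRCm38), was at 1084 and 1095 CPM in the resting control libraries and at 2709.9 and 2765 CPM after activation. The groups lay far apart, and the log2 fold change was 1.33 ± 0.033 (SE), with an edgeR adjusted p of 1.57e-21. Ccnd3, whose product is the other D-type cyclin of lymphocytes (ENSMUSG00000034165, chromosome 17, 47505051 to 47599691), went the other way, from 480.3 and 504 CPM at rest to 299 and 291 CPM. Its log2 fold change was −0.74 ± 0.041 (edgeR adjusted p = 1.89e-14). Ccnd3 overlaps Bysl on the opposite strand, which was at 38.8 CPM at rest and 101 CPM after activation. The third gene of the family, Ccnd1, was scarce, with a log2 rise of 3.06 ± 0.32 from 0.755 ± 0.644 to 6.86 ± 0.0344 CPM (SD, n = 2).

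Because the cyclins moved apart, their ratio changed more than either level. Per kilobase of exon, Ccnd2 exceeded Ccnd3 by 2.10 and 2.03 times in the resting controls and by 8.46 and 8.85 times in the activated ones. The same ratio was 2.15 in both resting KO libraries and 2.45 and 2.44 in resting AGN192403 cells. After activation it reached 8.81 and 9.33 in KO cells and 10.5 and 10.3 in AGN192403 cells, so no activated library overlapped a resting one in any group.

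The kinases moved less than the cyclins. Cdk4 (ENSMUSG00000006728, chromosome 10, 127063534 to 127067920), one of the partners of D-type cyclins, was at 226 CPM in both resting control libraries and at 283 and 292 CPM after activation, a log2 fold change of 0.35 ± 0.042 (edgeR adjusted p = 7.2e-08). Tspan31, on the opposite strand and overlapping Cdk4, was at 109 to 122 CPM over the 6 groups. The other kinase partner of these cyclins, Cdk6 (ENSMUSG00000040274, chromosome 5, 3341485 to 3531008), was at 799 and 767 CPM at rest and at 699.9 and 672 CPM after activation. These groups did not overlap, and the log2 fold change was −0.19 ± 0.043 (edgeR adjusted p = 0.000352). Per kilobase, Cdk4 exceeded Cdk6 by 1.24 ± 0.037 times at rest and by 1.81 ± 0.091 times in activated controls (SD, n = 2). This order depends on the merged exon lengths used, 3249 bases for Cdk4 and 13989 for Cdk6. In CPM, without the length, Cdk6 was the higher in every group. Cdk2, the kinase partner of cyclins E and A (ENSMUSG00000025358, chromosome 10, 128697939 to 128705031), fell from 67.5 and 67.8 CPM to 41.5 and 43.7 CPM. Its log2 fold change was −0.67 ± 0.06 (edgeR adjusted p = 2.66e-10), and all libraries of the activated groups were below all resting ones.

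The inhibitors had the largest falls of the members. Cdkn1b, which encodes p27 (ENSMUSG00000003031, chromosome 6, 134920401 to 134925513), was at 177 and 169 CPM in resting controls and at 38.7 and 36.5 CPM after activation. This was a 0.218-fold level, with a log2 fold change of −2.20 ± 0.056 (edgeR adjusted p = 2.09e-21). Cdkn2c, which encodes p18 (ENSMUSG00000028551, chromosome 4, 109660876 to 109667189), was at 43.9 and 44.3 CPM at rest and at 11.3 and 11.2 CPM after activation, and fell by 1.96 ± 0.092 on the log2 scale (edgeR adjusted p = 5.45e-16). Neither gene's resting and activated libraries came near each other.

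The pocket protein genes parted. Rb1 (ENSMUSG00000022105, chromosome 14, 73183673 to 73325822), whose product RB holds the activating E2F factors, was at 143 and 135 CPM in resting controls and at 63.7 and 61.6 CPM after activation. Its log2 fold change was −1.14 ± 0.055 (edgeR adjusted p = 8.2e-16). Rcbtb2 and Lpar6, which overlap Rb1 on the opposite strand, fell too, from 103 to 12.5 CPM and from 49.9 to 6.81 CPM, and the study names stranded libraries while the strand setting of the counting is not given in the sources used here. Rbl2 (ENSMUSG00000031666, chromosome 8, 91070057 to 91123844), whose product p130 is the pocket protein of quiescent cells and of the DREAM complex, was at 244 and 230.3 CPM at rest and at 272 and 269 CPM after activation. The resting libraries lay below the activated ones, a log2 fold change of 0.19 ± 0.041 (edgeR adjusted p = 0.000159). Per kilobase, Rbl2 exceeded Rb1 by 1.36 times in both resting control libraries and by 3.40 and 3.48 times in the activated ones.

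Myc (ENSMUSG00000022346, chromosome 15, 61985391 to 61990374), a transcription factor that drives growth and metabolism in activated T cells, was at 211 and 228 CPM in resting controls and at 499.6 and 524 CPM after activation. Its log2 fold change was 1.22 ± 0.043 (edgeR adjusted p = 1.79e-18). Every activated library of every group had more Myc than every resting one.

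The same comparison in the other cells asks whether the perturbations altered the response to CD3. In AGN192403 cells 2 members were called higher and 7 lower on activation, where 33.9% and 36.1% of all genes were called, and in KO cells 3 were called higher and 7 lower, where 37.2% and 36.5% were. Ccnd2, Myc, Ccnd3, Cdk2, Cdkn1b, Cdkn2c and Rb1 were called in the direction seen in controls in both. Cdk6 was called lower in KO cells, by −0.18 ± 0.044, and in AGN192403 cells, by −0.12 ± 0.043 (edgeR adjusted p = 0.019), the latter call being lost under 11 of 20 alternatives, among them leaving out either resting AGN192403 library, either KO library at rest or after activation, the second activated AGN192403 library or the second activated control library. Without the second activated AGN192403 library the Cdk6 value was −0.05.

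Rbl2 was the member whose direction differed. In KO cells it was at 221 and 224 CPM at rest and at 192 and 199.6 CPM after activation, a log2 fold change of −0.18 ± 0.042 (edgeR adjusted p = 0.000384). In AGN192403 cells it was at 215 and 216 CPM at rest and at 168 and 171 CPM after activation, a log2 fold change of −0.35 ± 0.043 (edgeR adjusted p = 9.71e-08). It thus rose in controls and fell in both perturbed kinds of cells, and in each the resting and activated libraries did not overlap. The fall in KO cells was −0.11, with an edgeR adjusted p of 0.0646, when no expression filter was applied.

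Cdk4 differed in size. In KO cells it was at 242 and 243 CPM at rest and at 279 and 275 CPM after activation, a log2 fold change of 0.19 ± 0.042 (edgeR adjusted p = 0.000232). In AGN192403 cells it was at 239.7 and 232 CPM at rest and at 225 and 243 CPM after activation. Those libraries overlapped, and the log2 fold change was −0.01, with a 95% confidence interval from −0.10 to 0.08 (edgeR adjusted p = 0.871).

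**Figure D2:**
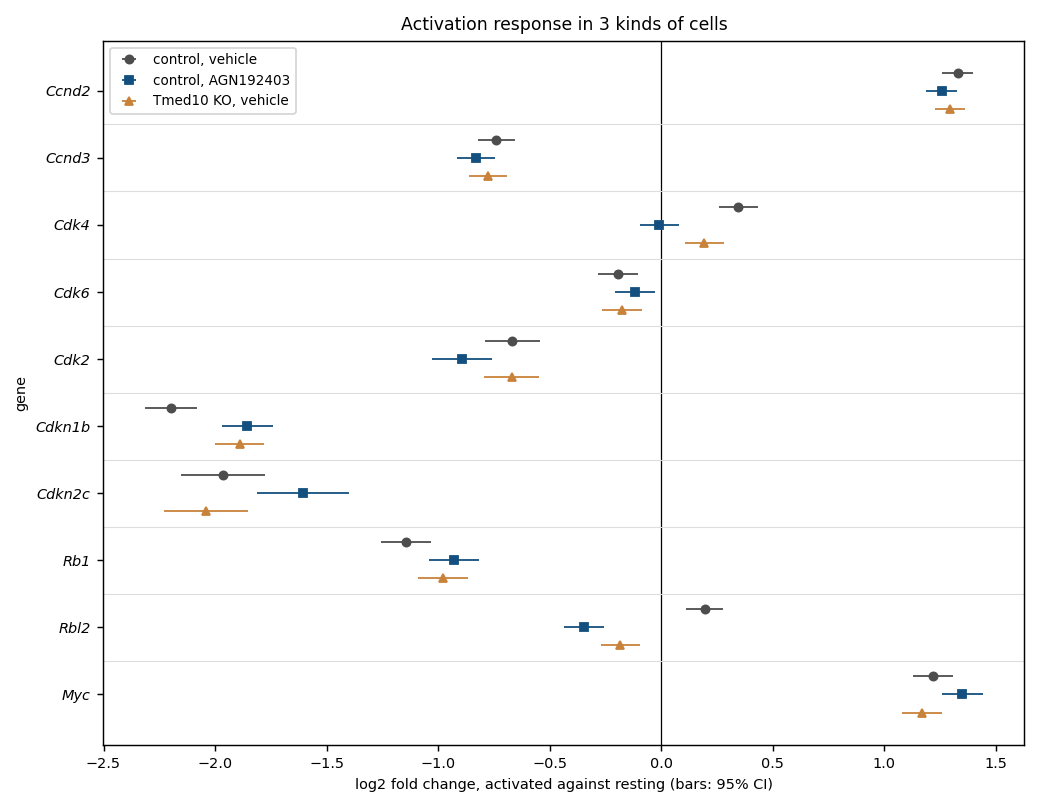
The horizontal axis is the log2 fold change of activated against resting cells, with 95% confidence intervals as bars, and each row is 1 gene. Circles are control cells with vehicle, squares AGN192403 cells and triangles Tmed10 KO cells. The Rbl2 points lie on both sides of 0, at 0.19 in controls, −0.18 in KO cells and −0.35 in AGN192403 cells, and Cdk4 in AGN192403 cells lies at −0.01.

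The difference between activation responses was tested directly. Between KO and control cells 1 member was called higher and 1 lower, where 3.07% and 1.89% of all genes were called. Rbl2 had a response lower by −0.38 ± 0.059 on the log2 scale (edgeR adjusted p = 0.000233), a call kept under all 20 alternatives. Cdkn1b had a response higher by 0.31 ± 0.081 (edgeR adjusted p = 0.0239), that is, a smaller fall in KO cells, but this call was lost under 9 of 20 alternatives, including DESeq2 (0.29, DESeq2 adjusted p = 0.178) and the omission of any of 8 libraries. Those were both resting AGN192403, both resting KO and both activated KO libraries, the first resting control and the second activated control library. Without the second activated KO library the Cdkn1b value was 0.23.

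Between AGN192403 and vehicle, 1 member was called higher and 2 lower, where 8.62% and 11.1% of all genes were called. The Rbl2 response was lower by −0.54 ± 0.059 (edgeR adjusted p = 4.17e-07) and the Cdk4 response by −0.35 ± 0.06 (edgeR adjusted p = 0.000136). The Cdkn1b response was higher by 0.34 ± 0.083 (edgeR adjusted p = 0.00396), again a smaller fall. These 3 calls were kept under all 20 alternatives. Cdkn2c, at 0.36 ± 0.14, and Rb1, at 0.21 ± 0.078, were not called (edgeR adjusted p = 0.0855 and 0.0542). Under 11 of 20 alternatives the Rb1 difference was called, and over all of them it ran from 0.16 to 0.31 with an edgeR or DESeq2 adjusted p from 0.0173 to 0.322.

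The next comparisons set each perturbation against the control cells in the same state, which asks what Tmed10 loss or AGN192403 did on their own. Both use the same control libraries, so their values are given side by side without a measure of likeness. In activated cells 1 member was called higher and 1 lower in the KO, where 10.8% and 8.78% of all genes were called. With AGN192403, 2 were called higher and 4 lower, where 16.4% and 18.3% were. The members' median absolute log2 difference was 0.074 in the KO and 0.14 with AGN192403, beside 0.14 and 0.19 over all genes. At rest it was 0.077 and 0.17, beside 0.10 and 0.16, and for the response differences 0.062 and 0.22, beside 0.14 and 0.21. Between KO and AGN192403 cells it was 0.15 after activation and 0.14 at rest, beside 0.14 and 0.13.

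Rbl2 had the largest difference from controls of the members in activated cells. Activated controls were at 272 and 269 CPM, KO cells at 192 and 199.6 CPM, and AGN192403 cells at 168 and 171 CPM. The 3 groups did not overlap, and the log2 differences from controls were −0.47 ± 0.042 in the KO (edgeR adjusted p = 8.57e-09) and −0.68 ± 0.042 with AGN192403 (edgeR adjusted p = 2.31e-12). Over all alternatives they ran from −0.50 to −0.44 and from −0.69 to −0.63. Aktip, which overlaps Rbl2 on the opposite strand, was at 13.9, 16.2 and 20.1 CPM in activated control, KO and AGN192403 cells.

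Cdkn1b was the other member called in activated KO cells, at 43.1 and 46.7 CPM against 38.7 and 36.5 CPM in controls. The KO libraries lay above the controls, by a log2 difference of 0.25 ± 0.067 (edgeR adjusted p = 0.0104), but DESeq2 did not call it (adjusted p = 0.0581), and neither did edgeR without the second activated control or the second activated KO library (0.20 and 0.19, edgeR adjusted p = 0.121 and 0.105). In AGN192403 cells the gene was at 41.1 and 39.5 CPM, also above the controls, and the difference of 0.10 ± 0.069 was not called (edgeR adjusted p = 0.298).

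The kinase genes were lower or higher with AGN192403 and not called in the KO. Cdk2 was at 29.8 and 32.3 CPM in activated AGN192403 cells against 41.5 and 43.7 CPM in controls, a log2 difference of −0.45 ± 0.069 (edgeR adjusted p = 9.83e-06). In activated KO cells it was at 41.7 and 41.0 CPM, within the range of the controls or just below it. Cdk4 was at 225 and 243 CPM with AGN192403 against 283 and 292 CPM in controls, a log2 difference of −0.29 ± 0.042 (edgeR adjusted p = 4.56e-06). Cdk6 went the other way, at 827 and 751 CPM against 699.9 and 672 CPM, with a difference of 0.20 ± 0.043 (edgeR adjusted p = 0.000649). The Cdk4 to Cdk6 ratio per kilobase was 1.17 and 1.39 in these AGN192403 libraries, below the 1.74 and 1.87 of controls and the 1.91 and 1.79 of KO cells.

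The cyclin genes differed little. Ccnd2 was at 2956 and 3010.2 CPM in activated AGN192403 cells, above the 2709.9 and 2765 CPM of controls, by 0.12 ± 0.032 on the log2 scale (edgeR adjusted p = 0.00385). In KO cells it was at 2881 and 2921 CPM, a difference of 0.08 ± 0.032 that was not called (edgeR adjusted p = 0.0722). Ccnd3 was at 262 and 273 CPM with AGN192403 against 299 and 291 CPM, a difference of −0.14 ± 0.042 (edgeR adjusted p = 0.0112). That call was lost under 8 of 20 alternatives, among them library totals without TMM (−0.09, edgeR adjusted p = 0.0696) and the omission of either activated control, either resting KO or the first activated AGN192403 library. Cdkn2c, Rb1 and Myc were called in neither comparison. Rb1 with AGN192403 had a difference of 0.13 ± 0.06 (edgeR adjusted p = 0.0908), and Myc −0.06 ± 0.041, with a 95% confidence interval from −0.15 to 0.02 (edgeR adjusted p = 0.244).

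**Figure D3:**
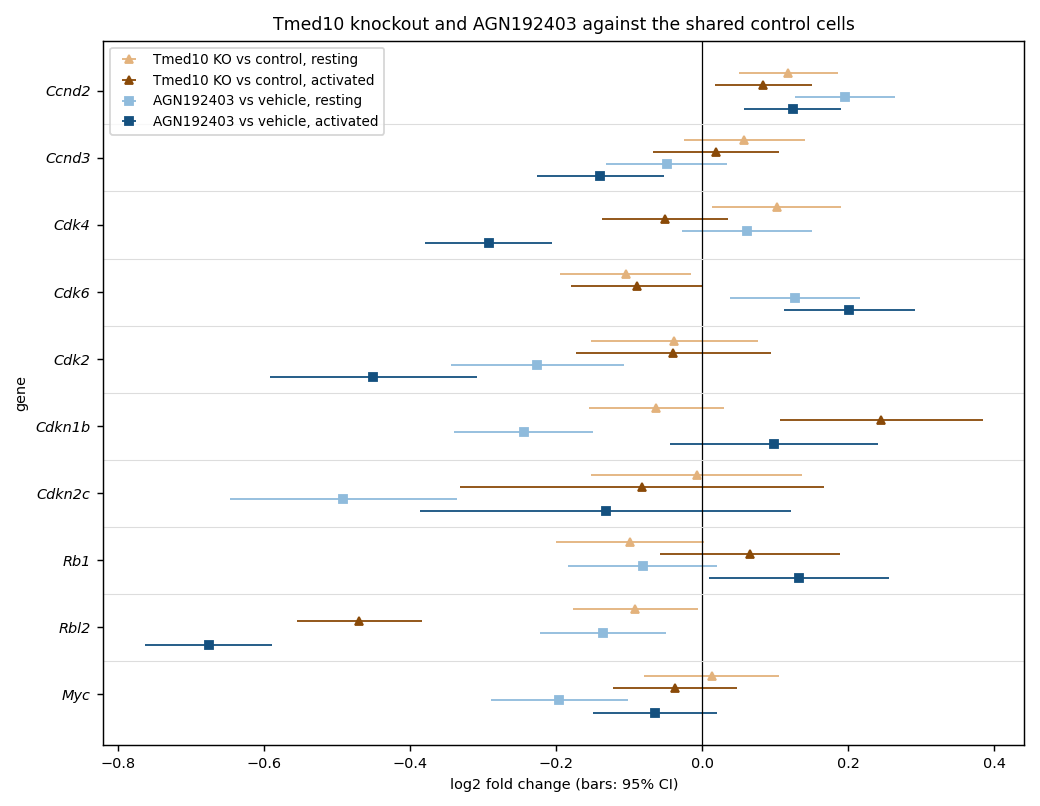
The horizontal axis is the log2 fold change against control cells with vehicle in the same state, with 95% confidence intervals as bars, and each row is 1 gene. Triangles are Tmed10 KO cells and squares AGN192403 cells, lighter at rest and darker after activation. Rbl2 after activation lies farthest from 0, at −0.47 in the KO and −0.68 with AGN192403, and Cdkn2c with AGN192403 at rest lies at −0.49.

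At rest 1 member was called higher in the KO than in controls and 0 lower, where 2.81% and 4.63% of all genes were called. DESeq2 gave the same counts, and 2 members were lower at an unadjusted edgeR p under 0.05. Ccnd2 was at 1174 and 1191 CPM in resting KO cells against 1084 and 1095 CPM, a log2 difference of 0.12 ± 0.033 (edgeR adjusted p = 0.0275). The libraries did not overlap, but the call was lost with no expression filter (edgeR adjusted p = 0.0572) and without any 1 of the 4 libraries compared, where its edgeR adjusted p ran from 0.0636 to 0.198. Cdk4, at 0.10 ± 0.043, and Cdk6, at −0.10 ± 0.043, were not called (edgeR adjusted p = 0.17 and 0.161).

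AGN192403 at rest left 2 members called higher and 5 lower, where 11.6% and 13.7% of all genes were called. Both inhibitor genes were lower. Cdkn2c was at 33.3 and 29.9 CPM against 43.9 and 44.3 CPM in controls, a log2 difference of −0.49 ± 0.075 (edgeR adjusted p = 2.03e-05). Cdkn1b was at 149.9 and 142 CPM against 177 and 169 CPM, a difference of −0.24 ± 0.046 (edgeR adjusted p = 0.000247). The resting KO libraries, at 43.0 and 45.1 CPM for Cdkn2c and 166 and 165 CPM for Cdkn1b, were called in neither gene.

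Ccnd2 was at 1264 and 1232 CPM in resting AGN192403 cells, above controls by 0.20 ± 0.033 on the log2 scale (edgeR adjusted p = 7.22e-05). Myc, at 193 and 191 CPM against 211 and 228 CPM, was lower by −0.20 ± 0.045 (edgeR adjusted p = 0.00216), a call lost without the second resting control library (−0.13, edgeR adjusted p = 0.0933). Cdk2 was at 60.0 and 56.2 CPM against 67.5 and 67.8 CPM, lower by −0.23 ± 0.057 (edgeR adjusted p = 0.00456). That difference was not called by DESeq2 (adjusted p = 0.0557), nor by edgeR without the second resting AGN192403 library (edgeR adjusted p = 0.131). All these libraries lay outside the control range.

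The other calls at rest were weaker. Rbl2 was at 215 and 216 CPM against 244 and 230.3 CPM, lower by −0.14 ± 0.042 (edgeR adjusted p = 0.0179). The call was lost under 6 of 20 alternatives, including the omission of either resting AGN192403 library or the first resting control library, where the value was −0.10. Cdk6 was at 843 and 867 CPM against 799 and 767 CPM, higher by 0.13 ± 0.043 (edgeR adjusted p = 0.0323), a call lost under 7 of 20 alternatives, among them median-ratio size factors (0.11, edgeR adjusted p = 0.0633). Omitting either resting AGN192403, either resting KO or the second resting control library also ended it.

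KO and AGN192403 cells were also compared with each other, a contrast that holds no vehicle control mean. The vehicle control libraries still entered the shared filter, scaling and spread. AGN192403 cells carried the control guide, so guide and compound differ together here and cannot be told apart. After activation 4 members were called higher in the KO than with AGN192403 and 1 lower, where 13.0% and 7.34% of all genes were called. Cdk2 was higher by 0.41 ± 0.068, Cdk4 by 0.24 ± 0.042 and Rbl2 by 0.21 ± 0.043 (edgeR adjusted p = 8.78e-05, 0.000157 and 0.00104), and Cdk6 was lower by −0.29 ± 0.044 (edgeR adjusted p = 2.32e-05). Ccnd3, higher by 0.16 ± 0.042 (edgeR adjusted p = 0.00793), lost its call under 4 of 20 alternatives, including the omission of the first activated AGN192403 library (0.11, edgeR adjusted p = 0.137) or the first activated KO library (0.10, edgeR adjusted p = 0.268).

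At rest 4 members were called higher in the KO than with AGN192403 and 1 lower, where 8.83% and 7.78% of all genes were called. Cdkn2c was higher by 0.48 ± 0.074 and Myc by 0.21 ± 0.045 (edgeR adjusted p = 3.59e-05 and 0.00184), and Cdk6 was lower by −0.23 ± 0.043 (edgeR adjusted p = 0.000384). Cdk2 and Cdkn1b were called higher, by 0.19 ± 0.057 and 0.18 ± 0.046 (edgeR adjusted p = 0.0239 and 0.00651), and both calls were lost with no expression filter and without the second resting AGN192403 library. The Cdk2 call was also lost with DESeq2 and without the first resting KO library.

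In order of level over the 6 groups, most members fell into 3 activated and 3 resting groups with a gap between. For Ccnd2, Ccnd3, Cdk2, Cdkn1b, Cdkn2c, Rb1 and Myc the 3 activated groups stood together on one side, and the neighbours across the gap differed by 0.44 (Cdk2) to 1.71 (Cdkn1b) on the log2 scale. For Cdk2 a step nearly as large lay inside the activated groups. It was 0.41 from KO down to AGN192403 cells (edgeR adjusted p = 8.78e-05). Within the resting Myc groups, KO and control cells did not differ beyond their spread (edgeR adjusted p = 0.928), while control and AGN192403 cells did. Within the activated Myc, Rb1 and Cdkn2c groups no pair of neighbours was called, with edgeR adjusted p from 0.482 to 0.833. Activated Ccnd2 and Cdkn1b groups had no called neighbours either (edgeR adjusted p = 0.435 and 0.0722, and 0.125 and 0.298). Their outer groups were called different, Ccnd2 with AGN192403 against controls and Cdkn1b in the KO against controls.

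Rbl2 was ordered otherwise. Activated controls stood at the top with 271 ± 2.07 CPM, followed by resting controls with 237 ± 9.45, resting KO cells with 222 ± 1.88, resting AGN192403 cells with 215 ± 0.568, activated KO cells with 196 ± 5.3 and activated AGN192403 cells with 169 ± 2.28 CPM (SD, n = 2). Resting KO cells differed from neither neighbour (edgeR adjusted p = 0.21 and 0.546), and the other 3 steps were called. Cdk4 spanned only a 1.27-fold range, from 226 to 287 CPM, with the activated control and KO groups on top and no called step among the other 4 groups. Cdk6 spanned a 1.32-fold range, with resting AGN192403 cells at the top and activated KO cells at the bottom.

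**Figure D4:**
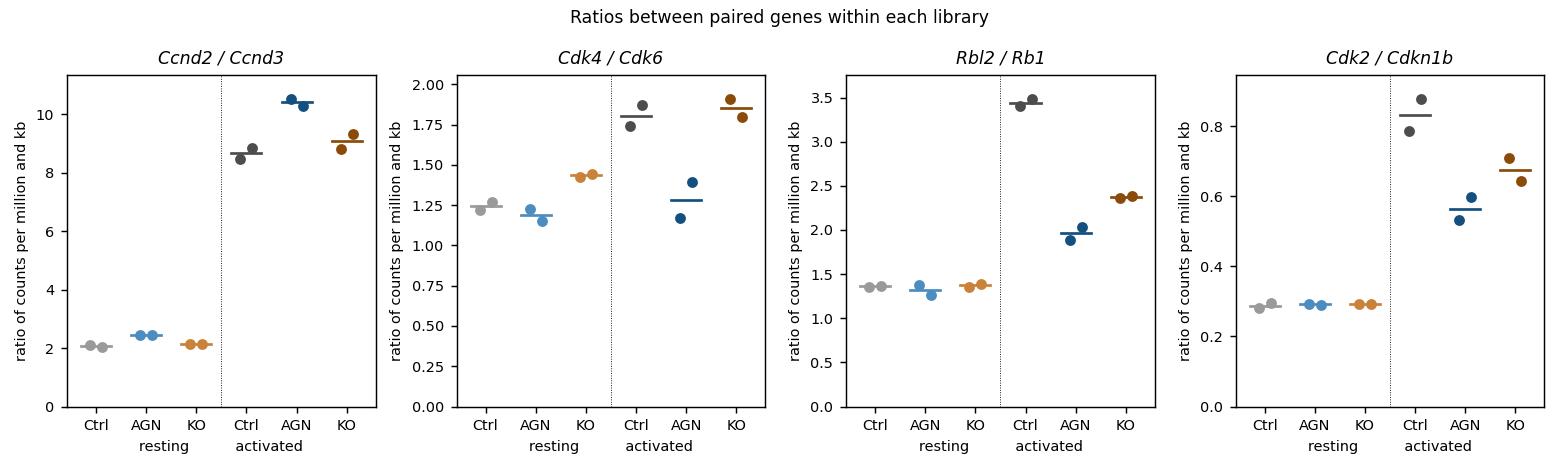
Each panel plots the ratio of 2 members within a library, from CPM per kilobase of exon, against the 6 groups. Points are libraries and bars are group means. Ccnd2 to Ccnd3 was 8.46 or more in every activated library and 2.45 or less in every resting one, and Rbl2 to Rb1 was 3.44 in activated controls, 2.37 in KO cells and 1.96 in AGN192403 cells on average.

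The ratio of Cdk2 to Cdkn1b, a kinase gene and the gene of its inhibitor, joined these differences. Per kilobase it lay between 0.280 and 0.294 in all 6 resting libraries. It was 0.786 and 0.877 in activated controls, 0.643 and 0.709 in activated KO cells, and 0.532 and 0.597 in activated AGN192403 cells, so that the 3 activated groups did not overlap. The Rbl2 to Rb1 ratio was ordered in the same way, at 3.40 and 3.48, 2.36 and 2.38, and 1.89 and 2.03. Ratios were not tested.

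As a description of pattern, the genes whose log2 CPM followed each member most closely over the 12 libraries were found by Pearson's r. For Rbl2 they were Cxcr5 (r = 0.950), Xrcc1 (0.927) and Mycn (0.923), the lowest nearest r of the 10 members. For Cdk4 they were Slc25a4 (0.968), Trap1 and Ppm1g, for Cdk6 Ralgapb (0.955), Lrp6 and D5Ertd579e, and for Cdk2 Cenpn (0.996), Hmgb2 and Ccnb2. Myc was followed by Pim3 (0.998), Tob2 and Serpinb6b, and Cdkn1b by Padi2 (0.999), Klhl30 and F2r. Ccnd2 was followed by Ccdc86 (r = 0.999), Ccnd3 by Slc44a2, Rb1 by Rnf141 (both 0.998) and Cdkn2c by Mark2 (0.997). The libraries share the resting or activated state, which alone gives high r to any gene that changes with it.

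Other genes of the pathway were described by list. Their counts stand beside the shares of all genes that edgeR called higher and lower. On activation of controls these shares were 36.4% and 37.4%. In activated cells they were 10.8% and 8.78% in the KO, and 16.4% and 18.3% with AGN192403. At rest they were 2.81% and 4.63% in the KO, and 11.6% and 13.7% with AGN192403. E2F targets encode the replication machinery and the enzymes of nucleotide supply. Of 20 tested, 2 were called higher and 13 lower on activation of controls, with Orc1 at 1.18 and Cdt1 at −1.07, and a median of −0.19 beside −0.02 over all genes. DESeq2 called 1 higher and 11 lower. In activated KO cells 17 were lower than in controls (median −0.25), with Tyms, the thymidylate synthase gene, at −0.47 and Pola1 at −0.39. With AGN192403, 19 of 20 were lower after activation (median −0.79, Rrm1 at −1.01 and Cdc45 at −0.97) and 19 of 20 at rest (median −0.27). DESeq2 called 14 lower in activated KO cells and, with AGN192403, 19 lower after activation and 14 lower at rest. In resting KO cells 0 of 20 were called by edgeR or by DESeq2, 1 had an unadjusted edgeR p under 0.05, and the median was 0.0042. The medians over all genes lay between −0.01 and 0.02 in these 4 comparisons.

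The pocket protein, E2F and DREAM genes beyond the members numbered 17. On activation of controls 4 were called higher and 11 lower, among them E2f2 (−1.74), E2f7 (−1.68) and Rbl1 (−1.22), which encodes the third pocket protein, p107, while E2f5 rose by 1.46. DESeq2 called 4 higher and 6 lower. After activation 5 were lower in the KO, with E2f2 at −0.41, E2f7 at −0.40 and Mybl2 at −0.34, and 12 were lower with AGN192403, with E2f7 at −1.04. E2f7 was at 11.7 ± 0.237 CPM in activated controls, 8.72 ± 0.612 in KO and 5.63 ± 0.354 in AGN192403 cells (SD, n = 2). DESeq2 called 1 of the 17 lower in the KO. At rest 0 were called in the KO by edgeR or by DESeq2, with 1 at an unadjusted edgeR p under 0.05, and with AGN192403 6 were lower.

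Of the 10 other G1/S cyclin and CDK genes, 4 were higher and 2 lower on activation of controls, led by Ccnd1 (3.06) and Cdc25a (0.98), a CDK-activating phosphatase gene, against Ccna2 (−0.97) and Cdk1 (−0.42). In activated KO cells 4 were lower, among them Ccnd1 (−0.90), Cdk1 (−0.43) and Ccna2 (−0.39), where DESeq2 called 2 lower. With AGN192403, 7 were lower and 1 higher, with Ccnd1 at −2.04 and both Ccna2 and Cdk1 at −1.25, where DESeq2 called 7 lower and 0 higher. At rest 0 were called in the KO by edgeR or by DESeq2, with 0 at an unadjusted edgeR p under 0.05, and AGN192403 left 2 higher and 3 lower, of which DESeq2 called 0 higher and 3 lower. Ccnd1 was at 1.67 ± 0.177 CPM in activated AGN192403 cells (SD, n = 2), so this gene's values rest on few reads.

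Of 6 other CDK inhibitor genes 5 were tested. Cdkn1a, which encodes p21, was the most abundant of them, at 497 CPM in resting controls, and unlike Cdkn1b and Cdkn2c it rose on activation, by 0.99 in controls, 1.16 in KO cells and 1.14 with AGN192403. Cdkn2b was lower on activation of controls (−0.67) and was higher than in controls in activated KO (0.51) and AGN192403 cells (0.98). Cdkn2d and Cdkn3 were lower in both, at −0.38 and −0.57 in the KO and at −0.65 and −1.45 with AGN192403, and DESeq2 called 1 of the list lower in activated KO cells. Cdkn3 was at 6.56 ± 0.854 CPM in activated controls, 4.49 ± 0.495 in KO and 2.31 ± 0.996 in AGN192403 cells (SD, n = 2). Its values therefore rest on few reads. In resting KO cells 0 genes of this list were called by edgeR or by DESeq2, with 2 at an unadjusted edgeR p under 0.05, and 3 were lower with AGN192403 at rest.

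The MYC network, 11 genes of which 10 were tested, holds the partners and antagonists of MYC. On activation of controls 4 rose and 6 fell, with the antagonist genes Mxd3 (−3.07) and Mxd4 (−2.23) falling most and Mycn, a close relative of Myc, rising by 0.56. In activated KO cells 2 were higher (Mxd4 at 0.54 and Max at 0.26) and 3 lower (Mycn at −0.62, Mga at −0.60 and Mxd1 at −0.25). With AGN192403 3 were higher (Mxd4 at 0.74) and 3 lower (Mxd3 at −1.28, Mycn at −1.25), while DESeq2 called 1 higher and 3 lower. At rest 4 were lower in the KO with edgeR and 0 with DESeq2, and 4 were lower with AGN192403.

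Of 15 textbook MYC targets most were called higher on activation, 14 in controls (median 1.29, Srm at 2.50 and Nop56 at 1.52), 14 higher in KO cells (median 1.09) and 13 higher in AGN192403 cells (median 0.94). Myc itself was not called different between the activated groups, while 13 of the 15 targets were lower with AGN192403 than with vehicle after activation (median −0.26, Ldha at −0.48 and Ptma at −0.45) and 1 was higher, the amino acid transporter gene Slc7a5 (0.63). In the KO 3 were lower, among them Cad (−0.33), and 1 higher, again Slc7a5 (0.45). At rest AGN192403 left 4 higher and 3 lower, and the KO 2 higher.

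**Figure D5:**
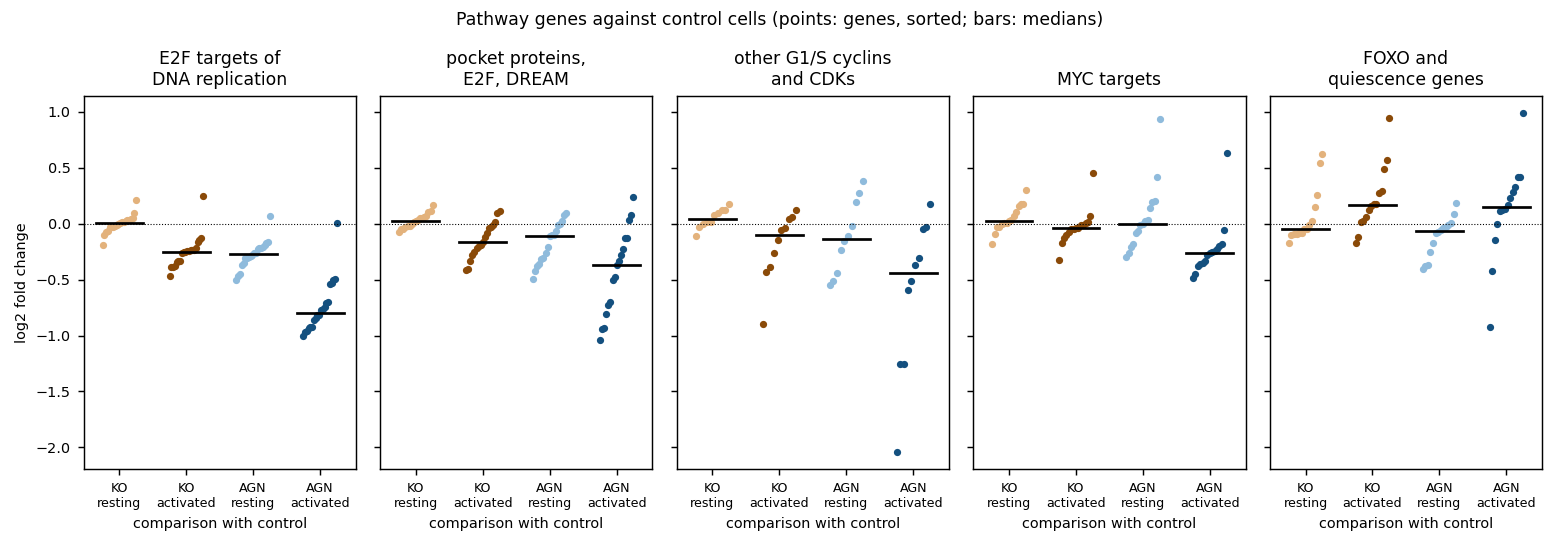
Each panel is 1 list of pathway genes and each column 1 comparison with control cells. Points are genes sorted by value, bars are medians, and the vertical axis is the log2 fold change. The E2F target medians were 0.0042 for the KO at rest, −0.25 for the KO after activation, −0.27 for AGN192403 at rest and −0.79 for AGN192403 after activation.

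FOXO and quiescence genes, 14 in number, were mostly called lower on activation of controls, with 2 higher and 11 lower (median −1.04), led by Klf2 (−4.18) and Pik3ip1 (−3.55), while DESeq2 called 1 higher and 11 lower. Klf2 was scarce, at a mean of 8.4 CPM over all libraries. In activated cells 5 were higher in the KO than in controls (Klf3 at 0.94, Tsc22d3 at 0.49) and 6 with AGN192403 (Klf3 at 0.99), where 1 was lower. DESeq2 called 5 higher in the KO, and 4 higher and 1 lower with AGN192403. At rest the KO had 2 higher (Klf2 at 0.62 and Klf3 at 0.54) and 1 lower (0 with DESeq2), and AGN192403 had 5 lower (3 with DESeq2). Among 13 genes that act on the turnover of G1 regulators, namely ubiquitin ligase genes and partners, 6 were higher and 5 lower on activation of controls. Those counts lie near the shares of all genes called there, 36.4% and 37.4%. Usp28, which is not a ligase gene, was at −1.92 and Fbxo31 at 0.79. With AGN192403, 3 were higher and 2 lower after activation and 2 higher at rest, where DESeq2 called 2 higher and 0 lower, and 1 higher. Ddb1 was higher in all 4 comparisons with controls, by 0.19 to 0.62, and was the only gene of the list called in either KO comparison. Skp2, part of the ligase that targets p27, was called lower with AGN192403 after activation by edgeR (−0.43) but not by DESeq2.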

How the data were processed

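Polyadenylated RNA of 12 libraries was deposited as 1 table of whole read counts per gene. The submitters' processing notes name GRCm38 (mm10), STAR 2.6.0c and HTSeq for the steps by which the authors obtained these counts, and the study's methods give a different STAR version. The libraries were stranded, and the strand setting of the counting is not given in the sources used here. Groups and replicate numbers follow the sample titles. Symbols were found for 46091 of 46603 identifiers in GENCODE vM21, and the other 512 held 0.0709% of counts.

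Differences were tested with edgeR 4.0.16 (R 4.3.3), using filterByExpr over the 6 groups, TMM factors from 0.976 to 1.02, and 1 mean per group fitted by quasi-likelihood over all 12 libraries, which left 6 residual degrees of freedom. The biological coefficient of variation was 0.0306. Genes were called at a Benjamini-Hochberg adjusted p under 0.05 over all genes tested in each of 11 comparisons. SEs and 95% confidence intervals came from the F statistic. Tests and intervals used the total degrees of freedom, which add those borrowed across genes to the residual ones. CPM are TMM-scaled, and CPM per kilobase used the merged exon length. Depth sets the counting error, which is largest for the least abundant members.

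The members and the 8 pathway lists were chosen with earlier results of these data known, so their counts and medians describe the lists and no list was tested. Named genes are the 10 members, Tmed10, up to 3 called rises and 3 called falls per list and comparison, and the 3 nearest genes of a member by Pearson's r of log2 CPM (prior count 2). Genes outside that rule were named after their values were seen, namely cell type markers, Malat1 and overlapping genes.

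As alternatives, the expression filter was removed or raised to 5 CPM in 2 libraries, TMM was replaced by median-ratio size factors or by plain library totals, and fits were made with a replicate block, leaving out each library, fitting only the libraries compared, and DESeq2 1.42.0 with all libraries. With a library left out, a lone library was assumed to vary like the others. Leaving out the 3 libraries with the most Malat1 counts was added after seeing the data. Proteins and the promoters of Ccnd2, Rb1 and Myc were not used here.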

Additional observations from a re-analysis of the deposited data

Results flagged for a closer look

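The groups held 2 libraries each, too few to ask whether 1 library stands apart within its group, and no file or sample went unused. What drew attention is that the activation response of some members differed between kinds of cells in a direct test of the difference.

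Against control cells, the response of Rbl2 was lower by −0.38 and that of Cdkn1b higher by 0.31 on the log2 scale in Tmed10 KO cells. The Rbl2 call was kept under all 20 alternatives, while the Cdkn1b call was lost under 9 of 20, DESeq2 among them. With AGN192403 the response of Rbl2 was lower by −0.54 and that of Cdk4 by −0.35, and that of Cdkn1b was higher by 0.34. Both tests use the same control libraries. Rbl2 rose in controls and fell in both perturbed kinds of cells, Cdk4 rose in controls and was not called in AGN192403 cells, and Cdkn1b fell in all 3. The Cdkn1b differences from controls were 0.25 after activation and −0.06 at rest in the KO. With AGN192403 they were 0.10 after activation and −0.24 at rest. Of these, the 0.10 and the −0.06 were not called. Whether cell number, cycle stage or the content of polyadenylated RNA per cell had a part in these differences was not tested.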

How the results depend on the processing

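Of 110 member values over 11 comparisons, 60 were called, and none of these changed sign under the 20 alternatives. At least 1 alternative ended the call for 13 of them, and gave a call to 10 of the 50 others. Of the 17 values smaller than their standard error that are not reported, 10 changed sign under some alternative, and none was called where it did. Cdk4 on activation with AGN192403, −0.01 as reported, was 0.046 without the 3 libraries with the most Malat1, 0.015 with DESeq2, 0.015 with median-ratio size factors, 0.0010 with no expression filter and 0.0062 with only the libraries compared, and ran from −0.066 to 0.067 with 1 library left out. It was called under none of these.

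DESeq2 called fewer genes. For the KO it called 1430 of all genes after activation, 380 at rest and 312 for the response difference, where edgeR called 2583, 979 and 653. For AGN192403 it called 3031, 1935 and 1491 against 4570, 3341 and 2592, and between KO and AGN192403 1525 after activation and 1297 at rest against 2673 and 2186. It called 1 member in activated KO cells and 1 for the KO response difference, against 2 in each with edgeR. With no expression filter, 0 members were called in resting KO cells and 3 between KO and AGN192403 at rest, against 1 and 5. With only the libraries compared, 2 were called in resting KO cells.

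With 1 library left out, the members called ran from 0 to 2 for the KO at rest, from 1 to 3 for the KO after activation, from 1 to 3 for the KO response difference, from 4 to 7 for AGN192403 at rest and from 3 to 6 between KO and AGN192403 at rest. All genes called ran from 317 to 1477 for the KO at rest, from 1538 to 2977 after activation and from 318 to 898 for its response difference. They ran from 1861 to 3701 for AGN192403 at rest, and between KO and AGN192403 from 1583 to 2804 after activation and from 1215 to 2654 at rest. The causes of these changes were not tested.

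Replicate numbers were not treated as pairs, since nothing in the labels ties them and most correlations were near 0. Over 15 pairs of groups the correlation of replicate differences ran from −0.00507 to 0.239, with 2 below 0 and 3 above 0.1. Those 3 were the pairs among resting controls, activated controls and activated AGN192403 cells, in each of which replicate 1 held more Malat1. A replicate block left every member call in place and added 3 to them, Ccnd2 in activated KO cells (0.08), Ccnd3 between KO and AGN192403 at rest (0.11) and Rb1 in the AGN192403 response difference (0.21). Few reads limit Cdkn2c most, at 9.58 to 11.3 CPM in activated cells.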
